A study of Mus musculus with 72 samples.

Results

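Collagen genes encode the alpha chains that assemble into triple helices of the extracellular matrix. The members were chosen by name: every protein-coding symbol made of Col, a number, a lower-case a and a number in the authors' deposited comparison tables was matched by Ensembl identifier to the count tables. This gave 43 genes of the 55401 listed in any count table, and all 43 passed the filter on low counts in every comparison below. No member had 0 counts in any library.

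The 72 libraries were made from total RNA of adult mouse hypothalamus, on a B6 background. The mice came from 5 lines, E1 to E5, in each of which a conserved noncoding element had been knocked out, and each line had its own wild types. Mice were fed, or had gone 72 h without food but with water. This makes 20 groups, namely fed wild type, fed knockout, fasted wild type and fasted knockout for each element, with 4 libraries in 12 groups and 3 in the other 8. The labels do not say whether a line goes back to 1 founder or whether tissue was pooled. Nor do they state that each library is a separate animal, and p-values measure only the spread between these libraries, which may be technical in part. In bulk tissue, fewer cells of a type and less RNA per cell cannot be told apart.

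Most collagens fall into families by the shape of what they build. Fibrillar collagens such as types I and III give tissue its tensile fibres, type IV chains form the sheet of every basement membrane, and beaded filaments of type VI lie around cells. FACIT collagens sit on the surface of fibrils, multiplexins in basement membranes, and a small group of transmembrane collagens is anchored in the cell surface. In brain, matrix of the fibrillar kind is found mostly in the meninges and around larger vessels, type IV collagen lines every capillary, and a few collagens are made by neurons.

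Promoter sequence is shown for 4 members. Col4a1 and Col4a2 encode the chains of the common type IV network and start back to back, and Col1a2 and Col3a1 are fibrillar members whose levels moved together among the libraries of a group. Each run reads 5′ to 3′ on the strand of its gene, 250 bases before to 50 after the RefSeq start (GRCm38.p6). Capitals mark matches, on either strand, to 3 short motifs: the GC box core GGGCGG, the CCAAT box and the TATA element TATAAA.
Col4a1, chr8:11312777-11313076, minus strand: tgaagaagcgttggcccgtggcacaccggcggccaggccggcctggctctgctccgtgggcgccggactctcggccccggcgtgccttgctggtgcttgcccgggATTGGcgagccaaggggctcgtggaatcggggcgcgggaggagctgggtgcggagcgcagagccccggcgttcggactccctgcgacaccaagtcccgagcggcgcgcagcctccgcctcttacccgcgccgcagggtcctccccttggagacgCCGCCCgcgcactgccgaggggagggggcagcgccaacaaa
Col4a2, chr8:11312555-11312854, plus strand: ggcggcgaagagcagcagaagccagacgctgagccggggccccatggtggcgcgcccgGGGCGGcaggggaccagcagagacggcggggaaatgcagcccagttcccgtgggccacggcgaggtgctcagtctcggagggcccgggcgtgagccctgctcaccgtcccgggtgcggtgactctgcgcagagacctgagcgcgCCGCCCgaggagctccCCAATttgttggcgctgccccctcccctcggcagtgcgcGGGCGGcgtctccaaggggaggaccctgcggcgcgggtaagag
Col1a2, chr6:4505368-4505667, plus strand: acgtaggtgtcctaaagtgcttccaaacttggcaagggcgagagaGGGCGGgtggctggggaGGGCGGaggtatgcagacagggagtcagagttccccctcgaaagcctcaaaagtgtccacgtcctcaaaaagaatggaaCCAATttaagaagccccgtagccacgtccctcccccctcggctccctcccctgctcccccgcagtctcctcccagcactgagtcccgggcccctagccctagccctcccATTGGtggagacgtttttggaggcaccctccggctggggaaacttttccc
Col3a1, chr1:45311288-45311587, plus strand: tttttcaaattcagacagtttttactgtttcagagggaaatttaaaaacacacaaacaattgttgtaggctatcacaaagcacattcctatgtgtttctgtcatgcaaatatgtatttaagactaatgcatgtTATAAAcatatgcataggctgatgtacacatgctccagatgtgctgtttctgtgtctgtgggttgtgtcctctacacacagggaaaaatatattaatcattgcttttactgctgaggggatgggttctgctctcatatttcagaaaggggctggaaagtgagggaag

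The windows of Col4a1 and Col4a2 share 78 bases, 11312777 to 11312854 of chromosome 8. In the mm10 annotation Col4a1 (11198423 to 11312826, minus strand) begins 21 bases inside the start of Col4a2 (11312805 to 11449287, plus strand), so the genes overlap there. Whether the authors' counting used strand is not given in the sources used here, and reads from that stretch cannot be told apart. Among the 34 members with a promoter in the RefSeq table, 22 held GGGCGG, 12 held CCAAT and 4 held TATAAA. Over all 32851 promoters in the table the shares were 35.7%, 37.4% and 13.6%. Col4a1 and Col4a2 each held matches to GGGCGG and CCAAT, as did Col1a2, and Col3a1 held only TATAAA. These are matches of letters in the windows, not sites.

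The most abundant collagen of this tissue was a transmembrane one. Levels are compared between genes as CPM, the counts scaled to a common library total, per kilobase of merged exons, with exon lengths from the annotation, as a mean over the 20 groups. A single library, fed E2 knockout replicate 3, held far more of many collagens than any other (below), and the values in this paragraph leave it out. Col25a1, a transmembrane collagen made by neurons whose shed form was found in amyloid plaques, stood at 18.6, and its group means lay between 13.3 in fasted E4 knockouts, where 1 of 3 libraries stands apart (below), and 22.0 in fasted E3 knockouts. Col4a2 followed at 10.2, then the transmembrane Col23a1 at 7.64, Col4a1 at 5.42, and the fibril-associated Col16a1 at 4.62 and Col9a2 at 4.32. At the other end were Col4a3, a chain of specialised basement membranes such as those of kidney and inner ear, and Col17a1 of skin hemidesmosomes. The highest level was 125 times the lowest. Of the 43 members 25 stood above 1 CPM per kb and 9 at 0.5 or less. In the order that includes fed E2 knockout replicate 3, no neighbouring pair kept its order in all 72 libraries, though some came close: Col25a1 was above Col4a2 in 71 and Col1a1 above Col3a1 in 70. Col3a1, placed by that 1 library, was above the next gene, Col19a1, in 1 library only. Col16a1 was above Col9a2 in 41.

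**Figure D1:**
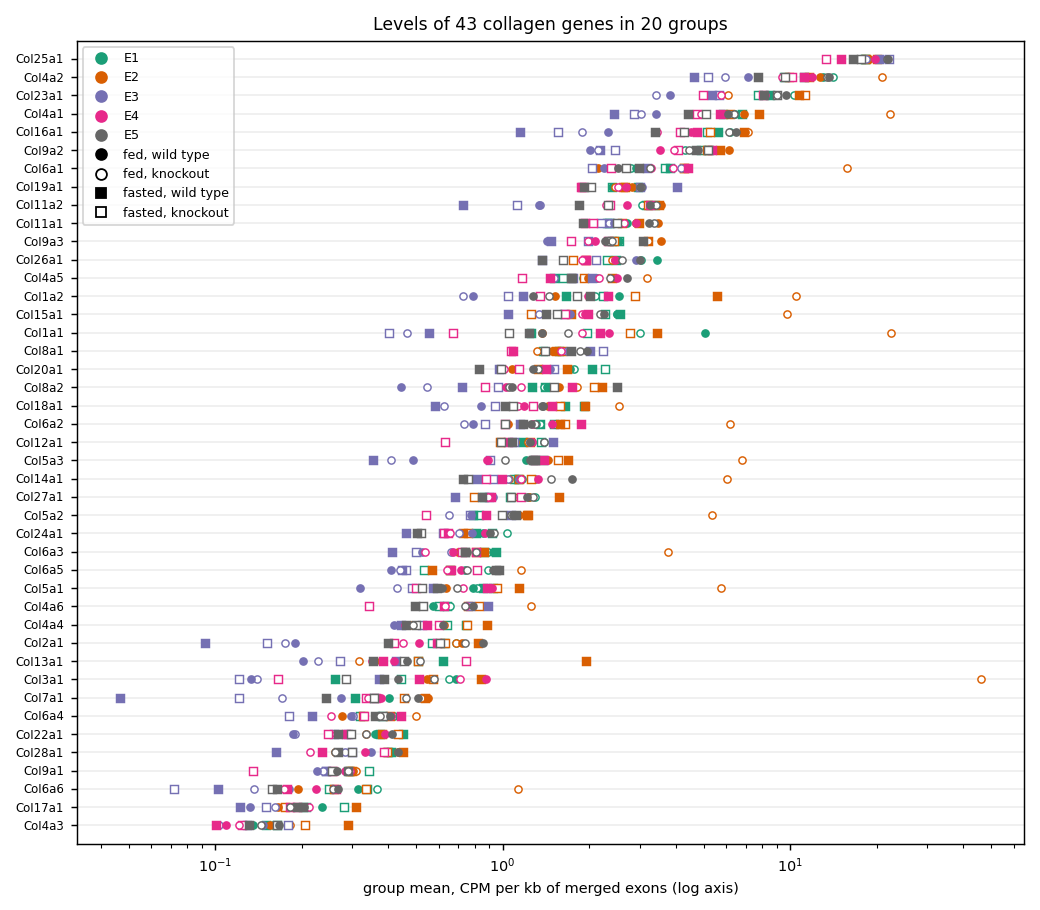
Group mean of each collagen gene in CPM per kilobase of merged exons (log axis), for 20 groups, where colour gives the line, circles are fed and squares fasted, and filled symbols are wild type and open ones knockout. Genes are ordered by their level without fed E2 knockout replicate 3, which pulls the fed E2 knockout mean (open orange circles) far to the right for Col3a1, Col1a1, Col4a1, Col6a1 and others.

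Among its libraries Col25a1 ranged from 109 to 344 CPM with a median of 241, and Col4a2 from 27.4 to 103 with a median of 69.8, apart from fed E2 knockout replicate 3 at 316. By class, the leading members without that library were Col25a1 (transmembrane), Col4a2 (basement membrane), Col16a1 (fibril-associated), Col6a1 (beaded filament), Col11a2 (fibrillar, at 2.63 CPM per kb beside 2.62 for Col11a1 and 1.79 for Col1a1), Col15a1 (multiplexin), Col8a1 (short-chain network), Col7a1 (anchoring fibril) and Col26a1, which has an EMI domain and fits none of these. Levels also differed by line. Again without it, 30 of 43 members had their lowest group mean in an E3 group, 15 of them in fasted E3 wild types, and 11 had their highest in fasted E2 wild types. The summed CPM of all members lay between 562 and 745 in the E3 libraries and between 743 and 954 in the E1 libraries. E3 and E1 differ in line and batch label, and Ddx3y, a gene of the Y chromosome, lay between 69.8 and 136 CPM in every E3 library and reached at most 0.0643 in E1, so line, batch and sex cannot be told apart in these levels.

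Fed E2 knockout replicate 3 has to be named before the comparisons. Its collagen CPM summed to 5790, against 691 to 961 in the other 7 fed E2 libraries. Of the 43 members 26 were highest there among the 8, and 12 were more than 10 times the median of the others. Col3a1, the fibrillar chain of skin and vessel wall, was at 1806 CPM against 2.46 to 11.1 in the others. Col1a1 was at 542 against 4.70 to 24.8, and Col6a1, a chain of type VI beaded filaments, at 253 against 5.91 to 14.1. The 8 fat markers summed to 6229 CPM in this library and to 10.6 to 47.0 in all other fed libraries. The part of that tissue in its collagens was not tested. Other libraries also carried transcripts of neighbouring or foreign tissue. Pituitary markers, 10 in all, summed to 1287 to 11700 CPM in the 3 fasted E2 wild types against at most 41.5 in the fasted E2 knockouts, and to 18900 in fasted E5 knockout replicate 3, 6431 in fasted E4 knockout replicate 3 and 4547 in fasted E5 wild type replicate 3. Choroid plexus markers were high in 3 E3 libraries (475 to 731) and in fasted E5 wild type replicate 1 (3287), and skeletal muscle markers in fed E1 wild type replicate 2 (267). Liver markers reached 174 in fasted E4 knockout replicate 2 and 117 in fasted E2 knockout replicate 3.

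Food deprivation could be tested only in E1 and E3, where fed and fasted libraries share a batch label. In E1 the title numbers of fed and fasted libraries form separate series, completely in knockouts and for all but a single fasted library in wild types. The labels do not say what the series are, and in E1 knockouts they cannot be told apart from feeding. In the wild types of both lines together, 4 collagens fell and none rose: Col26a1, the fibrillar Col27a1, Col4a2 and Col7a1 (edgeR quasi-likelihood test with line as covariate, Benjamini-Hochberg adjusted p under 0.05 over 14847 genes). The background was 11% of all genes called, 5.65% lower and 5.37% higher, and the collagens' 4 of 43 lie near it. By estimate, 29 of 43 members were negative, with a median log2 of -0.09, where the median of all genes was 0.01 with 48.3% negative. At an unadjusted p under 0.05 there were 11 members, beside 29.4% of all genes.

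**Figure D2:**
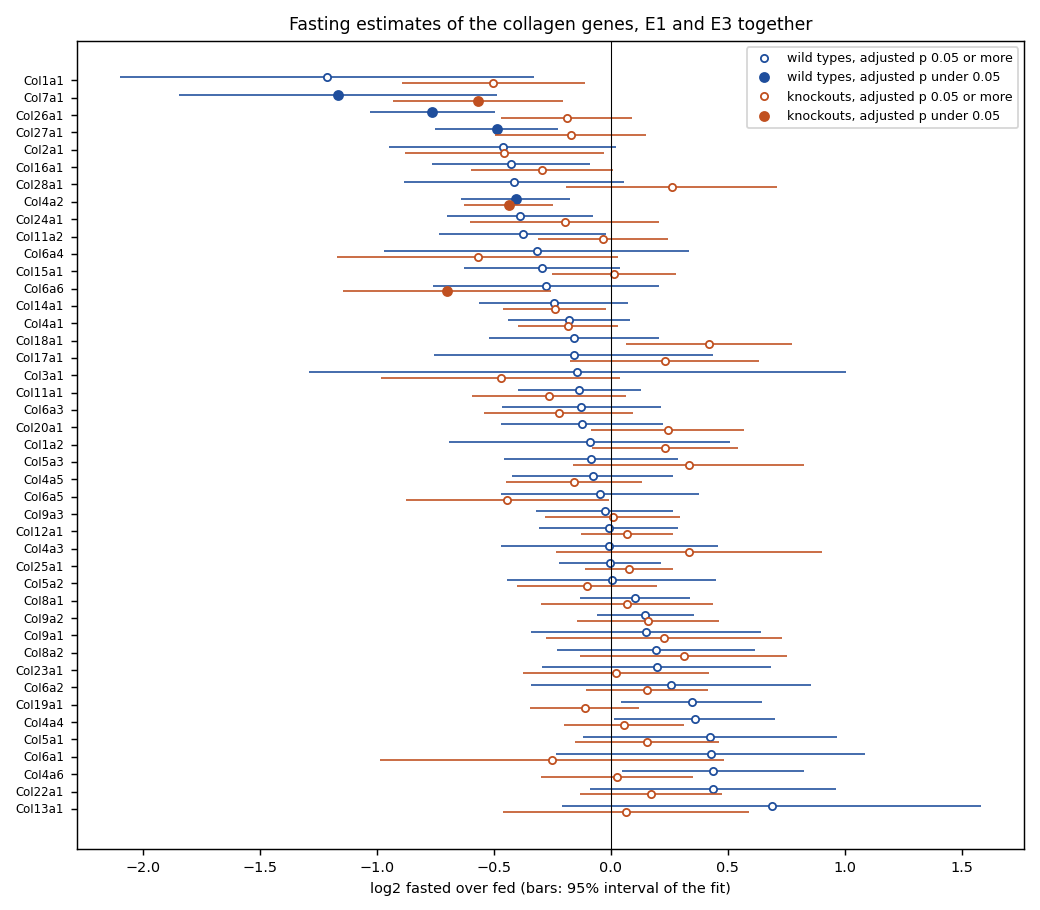
Log2 fasted over fed for each collagen gene in E1 and E3 together, wild types in blue and knockouts in orange; bars are 95% intervals of the fit and filled points have an adjusted p under 0.05. The 7 filled points all lie left of 0, between -0.41 and -1.17.

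Col26a1, a secreted collagen first described in testis and ovary, gave the smallest p. In E1 wild types it was at 30.4, 24.8, 32.9 and 25.1 CPM fed and at 16.2, 21.5 and 23.0 fasted. E3 wild types had 25.4, 21.8 and 24.3 fed and 9.39, 13.1 and 11.1 fasted. Every fasted value lay below every fed value of its line. The log2 change was -0.76 (SE 0.13, adjusted p = 0.0043), and the call held when any single library was left out. Thalamus markers, a sign of the dissection, summed to 827 to 907 CPM in fed and 431 to 678 in fasted E3 wild types, and in E1 wild types, the other way, to a median of 296 fed and 502 fasted. Their part in the fall of Col26a1 was not tested.

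Col4a2, the more abundant type IV chain, was at 79.7, 98.5, 88.9 and 76.4 CPM in fed E1 wild types, and at 63.5, 62.5 and 96.4 fasted. In E3 wild types it was at 43.8, 51.3 and 46.6 fed and at 30.7, 33.7 and 27.4 fasted. The groups overlapped in E1, through fasted replicate 3 at 96.4, whose title number lies in the fed series, and did not in E3. The log2 change was -0.41 (SE 0.11, adjusted p = 0.030). Its neighbour Col4a1 read -0.18 (95% interval -0.44 to 0.08) and was not called.

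Col7a1, the anchoring fibril of skin, was scarce. Fed E1 wild types had 3.06, 5.55, 3.89 and 4.13 CPM and fasted ones 2.52, 3.47 and 3.5. In E3 wild types it was at 2.72, 3.79 and 1.96 fed and at 0.402, 0.490 and 0.543 fasted. The E3 groups were far apart and the E1 groups overlapped. The log2 change over both lines was -1.17 (SE 0.32, adjusted p = 0.032). Col27a1, a fibrillar collagen of cartilage, was at 17, 16.2, 18 and 13.2 CPM fed and 9.99, 10.9 and 12.8 fasted in E1 wild types. In E3 it had 9.36, 12.2 and 14.6 fed against 9.46, 8.27 and 8.93 fasted, where the groups overlapped. Its log2 change was -0.49 (SE 0.12, adjusted p = 0.023).

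The count rests on single libraries except for Col26a1. It ranged from 1 to 6 when each of the 13 libraries was left out. The call of Col4a2 was lost in 9 of 13 such fits (adjusted p up to 0.074), that of Col7a1 in 7 (up to 0.068) and that of Col27a1 in 3 (up to 0.065). The count fell to 1, Col26a1 alone, without E1 fasted replicate 1, without E3 fed replicate 2 or without E3 fed replicate 3. It fell to 2 without E1 fed replicate 2, E3 fasted replicate 1 or E3 fasted replicate 3. It was 1 without the libraries that carried muscle or choroid plexus transcripts (E1 fed replicate 2 and E3 fasted replicate 1 together).

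The same contrast was fitted in the knockouts of E1 and E3. There 3 collagens fell and none rose, against a background of 20.1% of 14956 genes called, 10.2% lower and 9.9% higher: Col4a2, Col6a6 and Col7a1. At an unadjusted p under 0.05 there were 8 members, beside 35.3% of all genes. The share of collagens called, 3 of 43, was below that of all genes, and the members' median log2 was 0.01 beside -0.01 over all genes. Col4a2 was at 94.6, 86.9, 103 and 89.2 CPM in fed E1 knockouts and 65.9, 58.4, 61.6 and 66.6 in fasted ones. In E3 knockouts it was at 40.5, 44.7 and 33.0 fed and at 31.6, 29.8 and 41.5 fasted. The E1 groups were apart and the E3 groups overlapped. The log2 change was -0.44 (SE 0.09, adjusted p = 0.0052), and no single library left out ended the call.

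Col6a6, a minor chain of type VI collagen, was at 3.55, 2.81, 3.46 and 3.59 CPM in fed E1 knockouts and at 2.99, 2.91, 1.89 and 1.32 in fasted ones. Fed E3 knockouts had 1.16, 1.25 and 1.35 and fasted ones 0.349, 0.662 and 0.974. Fasted values were lower in every E3 library, and in E1 the groups overlapped. The log2 change was -0.70 (SE 0.21, adjusted p = 0.029). For Col7a1 the knockouts gave 6.03, 3.79, 7.07 and 5.09 CPM fed and 3.42, 3.88, 4.04 and 3.37 fasted in E1. In E3 it was at 1.55, 2.09 and 1.62 fed and 1.05, 0.866 and 1.82 fasted, and the groups overlapped in both lines. Its log2 change was -0.57 (SE 0.17, adjusted p = 0.029). Leaving out single libraries ended the call of Col6a6 in 5 of 14 fits (adjusted p up to 0.069) and that of Col7a1 in 8 (up to 0.079). The count then ranged from 1 to 6, at 1 (Col4a2) without E1 fed replicate 1, 3 or 4 or E1 fasted replicate 3, and at 6 without E3 fasted replicate 3.

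**Figure D3:**
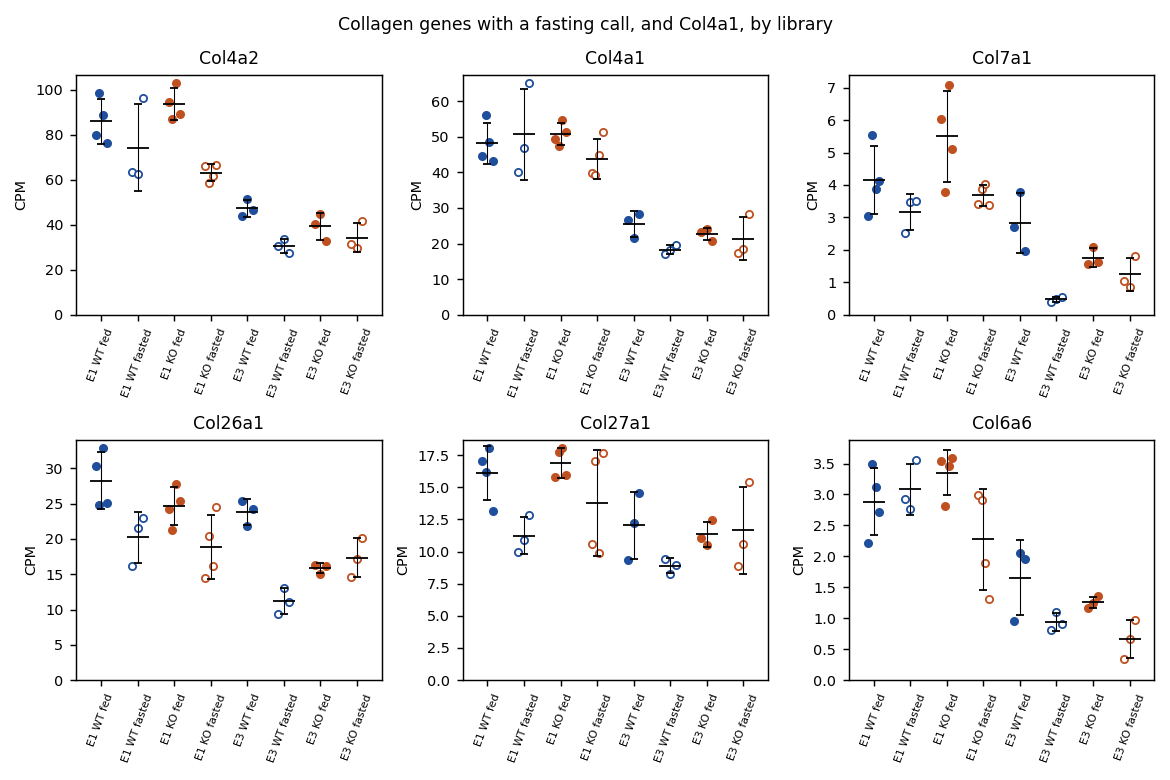
CPM of Col4a2, Col4a1, Col7a1, Col26a1, Col27a1 and Col6a6 in each E1 and E3 library, wild types in blue and knockouts in orange, fed filled and fasted open; the long bars are group means and the whiskers 1 SD. Fasted Col4a2 lies below fed in E1 knockouts and E3 wild types, and fasted Col7a1 in E3 wild types is at 0.402 to 0.543 CPM.

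Most vessel markers had negative estimates in the same comparisons. All 12 endothelial markers had a negative estimate in wild types, 3 of them called (median log2 -0.50), and 10 of 12 in knockouts, 4 of them called (median -0.33). Pericyte and smooth muscle markers were negative for 8 of 9 tested in wild types and for all 9 in knockouts, with 2 and 1 called. Their summed level in E3 wild types was 98.5 to 126 CPM fed and 53.6 to 108 fasted. E3 knockouts had 91.05 to 97.2 fed and 61.7 to 69.8 fasted, without overlap. The E1 groups overlapped, with 136 to 168 fed and 132 to 146 fasted in wild types and medians of 166 fed and 162 fasted in knockouts. The meningeal and perivascular fibroblast markers had positive medians, log2 0.36 and 0.16. Of the red-cell markers 4 of 4 tested fell in wild types, and all 11 tested genes for small-subunit ribosomal proteins rose there (median 0.47). Whether fewer vessel cells or less collagen RNA per cell lies behind the fall of Col4a2 was not tested.

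The enzymes that build collagen showed no single direction. Of 33 genes for hydroxylation, folding, secretion, trimming and crosslinking of collagen, 32 were tested in wild types, and 3 fell and none rose, near the 11% of all genes called. Plod1, a lysyl hydroxylase, read -0.40 (SE 0.11, adjusted p = 0.037), P4ha1, the catalytic subunit of prolyl 4-hydroxylase, -0.27 (SE 0.08, adjusted p = 0.038), and Adamts2, which trims procollagen ends, -0.46 (SE 0.13, adjusted p = 0.038). None of the 3 was called without the libraries of other tissue, and of 21 alternatives 10, 9 and 10 kept the calls. In knockouts 5 fell and 4 rose, beside 20.1% of all genes called. P3h3, a prolyl 3-hydroxylase family member, read -0.43 (SE 0.08, adjusted p = 0.0030), the crosslinking enzyme Loxl4 -0.84 (SE 0.19, adjusted p = 0.0075) and P4ha1 -0.35 (SE 0.10, adjusted p = 0.018). P4hb, the other prolyl 4-hydroxylase subunit and a general chaperone, rose by log2 0.38 (SE 0.06, adjusted p = 0.00087), the procollagen protease Tll1 by 0.63 (SE 0.12, adjusted p = 0.0033) and its enhancer Pcolce2 by 0.45 (SE 0.12, adjusted p = 0.019). The list's median log2 was -0.10 in wild types and -0.07 in knockouts.

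Among 12 collagen receptors Itga10, an integrin chain, fell in wild types at -0.68 (SE 0.20, adjusted p = 0.040) and in knockouts at -0.74 (SE 0.16, adjusted p = 0.0066), and Adgrg6, an adhesion receptor that binds type IV collagen, rose in knockouts by 0.44 (SE 0.12, adjusted p = 0.023). Of 14 genes for collagen breakdown and its inhibitors 8 were tested, and only Mmp15, a membrane-bound metalloproteinase, was called, at -0.48 (SE 0.11, adjusted p = 0.016) in wild types. Sparc, a collagen-binding matrix protein, rose in wild types by 0.41 (SE 0.08, adjusted p = 0.0097) and in knockouts by 0.58 (SE 0.08, adjusted p = 0.00051). It was the only called gene of 23 tested matrix partners in wild types. In knockouts Thbs2 and Fbln1 also rose, by 0.55 (SE 0.12, adjusted p = 0.0058) and 0.44 (SE 0.10, adjusted p = 0.0072), and the laminin chain Lamc1 fell, at -0.19 (SE 0.05, adjusted p = 0.011). In each of these lists the share called lay near or below that of all genes given above, in wild types and in knockouts. Of 21 alternatives in wild types 9 kept Itga10, 18 Mmp15 and 19 Sparc. The knockout calls named for these lists held in 19 to 21 of 22.

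The difference in fasting change between the lines was called for collagens about as often as for other genes. E3 and E1 also differ in batch label and, by Ddx3y, in sex, so line, batch and sex cannot be told apart in it. In wild types, the difference of the log2 changes, E3 minus E1, was called for 5 members of 43 against a background of 13.1% of 15159 genes. At an unadjusted p under 0.05 there were 15 members, beside 30.4% of all genes. Col7a1 gave -2.09 (SE 0.42, adjusted p = 0.0084), with log2 changes of -2.52 in E3 and -0.43 in E1. Col16a1, a fibril-associated collagen, gave -0.98 (SE 0.20, adjusted p = 0.0087). It was at 32.2, 43.6, 37.1 and 36.9 CPM fed and 33.9, 37.5 and 41.9 fasted in E1 wild types, and at 16.8, 17.2 and 13.1 fed and 6.97, 9.99 and 6.33 fasted in E3. The E1 values overlapped and the E3 values did not.

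The fibrillar Col3a1 and Col1a1 differed with the opposite sign. They were the 2 called of 11 fibrillar members, of which 7 had a positive and 4 a negative estimate (median 0.21). Col3a1 gave 2.91 (SE 0.73, adjusted p = 0.020). It was at 3.54, 6.71, 9.17 and 7.68 CPM fed and 1.72, 3.54 and 2.46 fasted in E1 wild types, and at 1.96, 1.19 and 0.773 fed and 1.68, 7.60 and 1.63 fasted in E3. Fasted E1 values were low, and in E3 the highest value, 7.60, came from 1 fasted library, replicate 2. Col1a1, the major chain of type I collagen, was at 24.0, 38.6, 31.2 and 39.2 CPM fed and at 5.75, 8.68 and 10.3 fasted in E1, and at 5.03, 2.65 and 3.25 fed and 0.939, 7.78 and 2.17 fasted in E3. Its E1 groups were far apart, with a log2 change of -2.05, and E3 replicate 2 was again the highest fasted library. The difference was 2.05 (SE 0.62, adjusted p = 0.043). In that library the meningeal and perivascular fibroblast markers summed to 556 CPM, against 231 and 309 in the other fasted E3 wild types, and the pericyte and smooth muscle markers to 108 against 53.6 and 54.7. Their part in the difference was not tested.

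Col28a1, a scarce collagen of nerve sheaths, gave -1.13 (SE 0.35, adjusted p = 0.049). In E1 it was at 1.98, 1.64, 1.98 and 1.99 CPM fed and 1.87, 1.61 and 2.52 fasted, and in E3 at 1.96, 1.57 and 1.60 fed and 0.939, 0.797 and 0.664 fasted. Only the E3 groups were apart. This call was lost in all 13 fits without 1 library. Col1a1 lost its call in 9 of them (log2 0.89 to 2.18, adjusted p up to 0.20). Without E3 fasted replicate 2 the Col1a1 difference was the 0.89 just given and that of Col3a1 was 1.83. Without E3 fed replicate 3 Col3a1 was at 2.68 (adjusted p = 0.053). The count was 3 without E1 fed replicate 1, 2 or 4 or E1 fasted replicate 2, and 2 (Col7a1 and Col16a1) without E3 fed replicate 3.

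GC composition of the libraries differed between fed and fasted E3 wild types. The mean log2 level of genes in the upper quartile of transcript GC minus that in the lower quartile, centred in each line, was -0.489, -0.052 and -0.381 in fasted E3 wild types 1, 2 and 3 and 0.021 to 0.194 in fed ones. This measure overlapped in E1 wild types, at -0.15 to 0.117 fed and -0.121 to 0.185 fasted. E3 knockouts had 0.055 to 0.063 fed and 0.012 to 0.385 fasted. Col7a1, Col16a1, Col26a1 and Col4a2 have 60.5% to 61.6% GC in their transcripts. After the GC trend was removed, Col26a1, Col4a2 and Col7a1 were still called in wild types and Col27a1 was not, and the E3 minus E1 difference was called for Col7a1, Col16a1, Col3a1, Col1a1 and also Col8a2, and not for Col28a1.

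In E2, E4 and E5 feeding and batch label coincide, so fed and fasted values there cannot be told apart from batch and are only a description. The estimate of Col4a2 was -0.91 in E5 wild types, -0.60 in E5 knockouts, -0.20 in E4 wild types, 0.23 in E4 knockouts, -0.17 in E2 wild types and -1.16 in E2 knockouts, the last with the library rich in fat markers among the fed. Col26a1 read -1.22 and -0.78 in E5, -0.45 and 0.17 in E4, and -0.38 and -0.53 in E2, wild types before knockouts. Negative estimates numbered 38 of 43 members in E5 wild types and 35 in E5 knockouts, beside 51.25% and 50.8% of all genes. E4 had 31 in wild types and 20 in knockouts, beside 50.4% and 48.1%. E2 had 14 in wild types and 33 in knockouts, beside 44.7% and 53.6%.

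Knockout of an element was compared with wild type within each line and feeding state. No collagen was called in any of the 10 comparisons by edgeR, nor was any other gene (0% called in each). DESeq2 called 1 collagen in fasted E2 (Col13a1) and 1 in fed E3 (Col26a1) and none in the other 8. At an unadjusted p under 0.05 there were between 2 members (fasted E1, beside 3.9% of all genes) and 14 (fasted E4, beside 9.39%). Fed E2 had 13, beside 3.5% of all genes, fed E4 10 beside 5.23%, fasted E3 9 beside 17.5% and fasted E5 8 beside 7.32%. Fed E1, fed E3 and fed E5 had 4 members each, beside 4.85%, 9.74% and 2.82%, and fasted E2 had 3 beside 7.47%. In the authors' deposited tables, which hold 8 of these comparisons, no collagen had an adjusted p under 0.05 and the smallest was 0.139. That value, for Col26a1 in fed E3, stands beside a deposited unadjusted edgeR p of 7.7e-06. Col1a1 in fed E1 has 0.214 beside 1.2e-05. The deposited values look like p multiplied by the number of genes. That is stricter than Benjamini-Hochberg, so they are not on the scale used here.

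**Figure D4:**
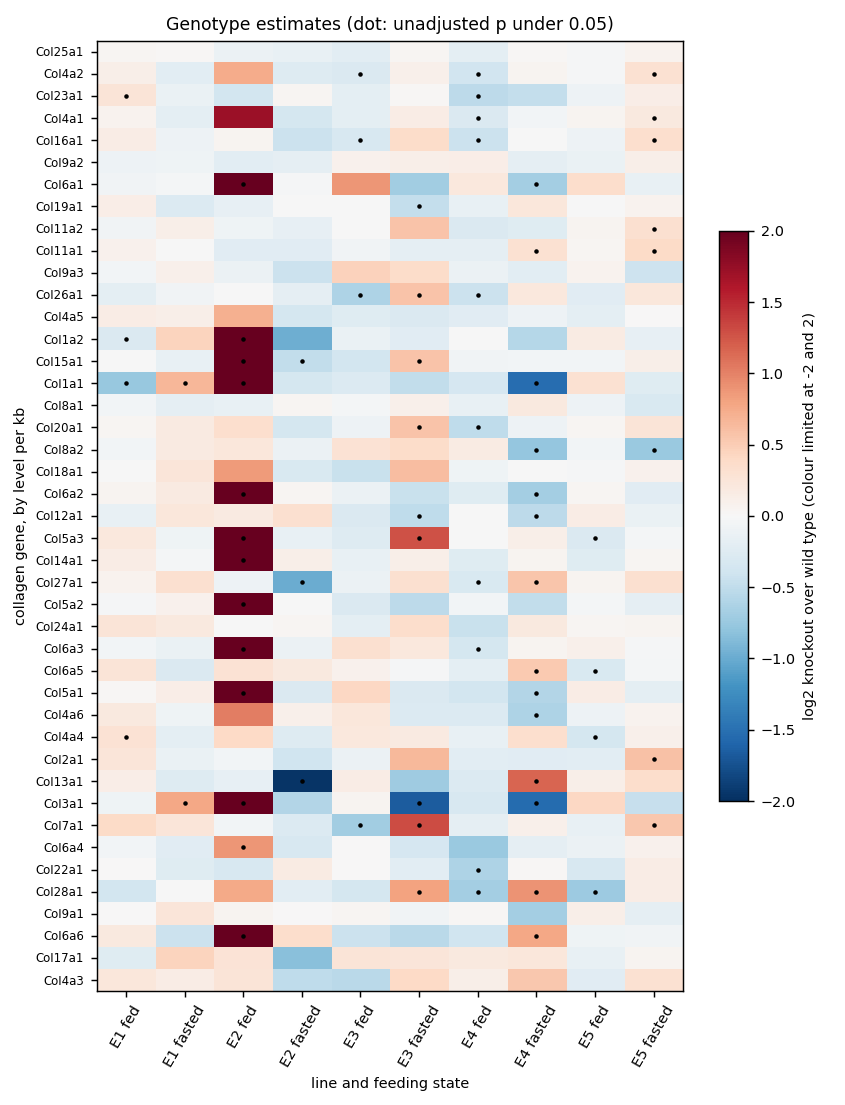
Log2 knockout over wild type of each collagen gene (rows, by level per kb) in each line and feeding state (columns), with the colour limited at -2 and 2; dots mark an unadjusted p under 0.05. Dark red cells stand mainly in fed E2, where 1 knockout library carries the values.

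In E1 the members of smallest p were fibrillar. Fed Col1a1 was at 24.0, 38.6, 31.2 and 39.2 CPM in wild types and 17.8, 24.4, 22.3 and 14.7 in knockouts, where 1 knockout value lay just inside the wild type range (log2 -0.75, SE 0.16, adjusted p = 0.95). Fed Col1a2, the other type I chain, was at 24.4, 31.4, 32.5 and 37.6 against 27.8, 24.8, 29.6 and 21.7, with overlapping groups (-0.29, SE 0.12, adjusted p = 0.95). After fasting the smallest p had positive estimates. Col1a1 was at 5.75, 8.68 and 10.3 CPM in wild types and 12.9, 19.5, 11.5 and 7.63 in knockouts (0.66, SE 0.29, adjusted p = 0.95). Col3a1 was at 1.72, 3.54 and 2.46 against 6.08, 5.09, 3.99 and 2.26 (0.78, SE 0.34, adjusted p = 0.95). Both overlapped.

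The fed E2 estimates rest on a single library. Col1a1 was at 8.21, 11.9, 7.93 and 8.10 CPM in wild types and 24.8, 4.70, 542 and 19.7 in knockouts (log2 4.06, SE 1.33, adjusted p = 0.87). Col3a1 was at 2.71, 11.1, 3.41 and 4.18 against 4.82, 2.46, 1806 and 4.06 (6.44, SE 2.23, adjusted p = 0.87). Without knockout replicate 3 they were 0.87 and -0.49, the members' median log2 went from 0.29 to -0.06 and the number at an unadjusted p under 0.05 from 13 to 1. Without that library the groups of Col3a1 overlapped.

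Fasted E2 wild types held pituitary RNA, and Col13a1, a transmembrane collagen of cell junctions, was high in 2 of them. It was at 2.75, 9.92 and 14.2 CPM in wild types and 2.76, 2.12 and 2.11 in knockouts, so that 1 wild type lay inside the knockouts' range (log2 -1.97, SE 0.54, adjusted p = 0.66). Col27a1 was at 12.5, 29.7 and 19.1 against 11.6, 10.9 and 8.61, with no overlap (-1.0, SE 0.31, adjusted p = 0.66). The pituitary markers summed to at least 1287 CPM in each wild type and to at most 41.5 in knockouts. Their part in these values was not tested. DESeq2 gave Col13a1 an adjusted p of 0.023 and edgeR without wild type replicate 1 one of 0.027, and over all alternatives it ranged from 0.023 to 1.0.

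In E3, Col26a1 had the smallest p fed and fasted, with opposite signs. Fed, the wild types had 25.4, 21.8 and 24.3 CPM and the knockouts 16.4, 15 and 16.2, all lower (log2 -0.61, SE 0.10, edgeR adjusted p = 0.19, DESeq2 adjusted p = 0.0025, range over alternatives 0.0025 to 0.56). In fasted libraries the wild types had 9.39, 13.1 and 11.1 CPM and the knockouts 14.7, 17.2 and 20.1, all higher (0.57, SE 0.17, edgeR adjusted p = 0.18). No gene of 14602 fed or 14590 fasted was called by edgeR. The interaction of genotype and feeding was called for Col26a1 alone, 1 of 43 members against a background of 1.34% of 15033 genes (1.18, SE 0.19, adjusted p = 0.036). It was not called with the GC trend taken out (0.91, adjusted p = 0.094), nor without the 3 libraries that carried choroid plexus (1.09, adjusted p = 0.21). Single libraries decided the call as well: it was lost in 8 of 12 fits (1.09 to 1.24, adjusted p 0.052 to 0.12), and held without fed wild type replicate 1, fasted wild type replicate 2 or fasted knockout replicate 1 or 3. Over all alternatives the adjusted p ranged from 3.2e-05 to 0.21. The 8 thalamus markers had a median log2 of -0.41 for knockout over wild type fed, 0.68 fasted and 1.14 in the interaction, with none called, and summed to 294 to 1102 CPM in fed and 533 to 1041 in fasted E3 knockouts. Over 71 libraries of all groups Col26a1 had a Spearman correlation of 0.50 with them after group means were subtracted. Their part in the interaction was not tested.

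Other E3 members of small p were fed Col16a1 and fasted Col5a3. Col16a1 was at 16.8, 17.2 and 13.1 CPM in fed wild types and 13, 14 and 11.3 in knockouts (log2 -0.32, SE 0.14, adjusted p = 0.51), overlapping. Col5a3, a fibrillar type V chain, was at 3.22, 1.59 and 2.41 in fasted wild types and 4.42, 4.28 and 9.78 in knockouts (1.28, SE 0.40, adjusted p = 0.19), with no overlap.

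Fed E4 gave Col23a1 and Col4a2. Col23a1 was at 54.1, 46.7, 48.3 and 38.0 CPM in wild types and 31.2, 26.7, 44.0 and 29.5 in knockouts, 1 of which lay inside the wild type range (log2 -0.53, SE 0.15, adjusted p = 0.79). Col4a2 was at 78.4, 80.7, 71 and 85.8 against 57.1, 57.2, 64.6 and 69.2, without overlap (-0.38, SE 0.11, adjusted p = 0.79). Of the 43 members 37 had a negative estimate in this comparison, and none was called. Their median absolute log2 was 0.23 beside a median SE of 0.20. Without the share of all genes beside it, the count does not set collagens apart. Endothelial markers summed to 166 to 256 CPM in these wild types and 113 to 176 in the knockouts, and their part in Col4a2 was not tested. Wild type replicate 4 stood apart: its small-subunit ribosomal protein genes summed to 398 CPM against 1053 to 1171 in the other 3, hypothalamic neuron markers to 167 against 420 to 511, and striatum markers to 1352 against 667 to 754. Without it the estimates were -0.59 for Col23a1 and -0.30 for Col4a2.

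After fasting, every E4 knockout library had a lower CPM of Col1a1 than every wild type, but not past the adjusted threshold. These CPM are of the library total, without TMM scaling. Wild types were at 24.2, 7.83, 14.6 and 10.6 CPM and knockouts at 4.35, 4.90 and 3.96 (log2 -1.53, SE 0.35, adjusted p = 0.42). Col6a1 was at 21.9, 19.8, 19.5 and 16.4 against 7.61, 14.5 and 9.34, again without overlap (-0.68, SE 0.17, adjusted p = 0.44). With no filter on low counts, edgeR called both (adjusted p 0.00024 and 0.027, where the ranges over all alternatives reach 1.0) and Col3a1 (log2 -1.54, adjusted p = 0.031). Knockout replicate 1 had 5517552 counts, the fewest of all libraries. Its collagens summed to 372 CPM against 714 and 749 in the other 2 knockouts, and its small-subunit ribosomal protein genes to 833 against 1402 and 1749. Oligodendrocyte precursor markers summed to 371 CPM there against 593 and 634. Replicate 3 held pituitary RNA and replicate 2 liver RNA. The part of these differences in Col1a1 and Col6a1 was not tested. Meningeal fibroblast markers summed to a median of 208 CPM in these wild types and 157 in the knockouts.

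In fed E5 the scarce Col28a1 had the smallest p but lay under the level set for naming. Col5a3 was at 7.36, 9.11, 8.19 and 9.25 CPM in fed wild types and 6.96, 7.76, 6.66 and 6.41 in knockouts (log2 -0.29, SE 0.12, adjusted p = 1.0). Col4a4, a chain of specialised basement membranes, was at 5.97, 6.12, 7.90 and 6.25 against 4.94, 5.69, 5.48 and 4.62 (-0.35, SE 0.15, adjusted p = 1.0). The Col4a4 groups did not overlap and those of Col5a3 did. Fasted Col16a1 was at 24.9, 23.0, 20.9 and 22.5 in wild types and 27.5, 26.4, 27.4 and 34.3 in knockouts, all higher (0.33, SE 0.10, adjusted p = 0.67). Fasted Col7a1 was at 2.47, 2.42, 2.45 and 2.63 against 2.91, 3.45, 3.75 and 4.55, all higher as well (0.54, SE 0.17, adjusted p = 0.67). Of these 8 libraries knockout 3 and wild type 3 held pituitary RNA and wild type 1 choroid plexus RNA. Without the 3 the estimates were 0.35 for Col16a1 and 0.50 for Col7a1, and neither was called.

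Interactions in E1, E2, E4 and E5 were called for no collagen and no other gene (0% in each) by edgeR, and for no collagen by DESeq2. The members at an unadjusted p under 0.05 numbered 5, 9, 10 and 4, beside 8.1%, 6.45%, 11.2% and 5.95% of all genes. In E3 there were 6, beside 20.4%.

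Some collagens varied together between libraries of the same group. After each group's mean log2 CPM was subtracted, Spearman's correlation over 71 libraries, without fed E2 knockout replicate 3, had a median of 0.23 over the 903 pairs of members. These values describe libraries that share depth and dissection, and carry no test. The highest pairs were Col1a2 with Col3a1 (0.83), Col5a1 with Col6a2 (0.83) and Col1a1 with Col3a1 (0.82), fibrillar and beaded filament chains. Col1a2 and Col3a1 were also the members closest to the meningeal and perivascular fibroblast markers, at 0.81 and 0.82, with Col1a1 at 0.71. For the pericyte and smooth muscle markers the values of Col1a1, Col1a2 and Col3a1 were 0.76, 0.75 and 0.735. With the endothelial list these 3 were at 0.27 to 0.32.

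**Figure D5:**
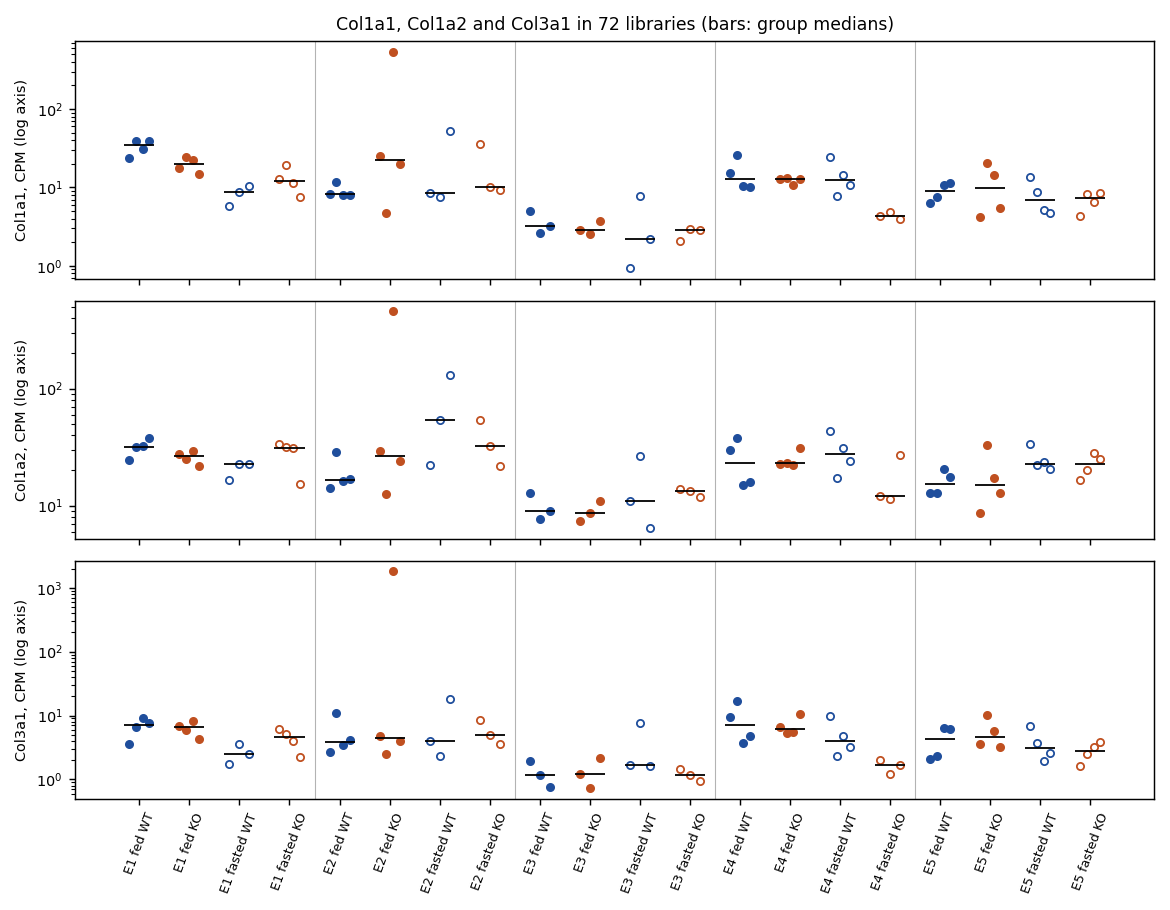
CPM of Col1a1, Col1a2 and Col3a1 in each of the 72 libraries on a log axis, by group, with wild types in blue, knockouts in orange, fed filled and fasted open; bars are group medians. The 3 genes are high together in fed E2 knockout replicate 3, at 542, 457 and 1806 CPM.

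Of the 903 pairs of members 88 had a correlation above 0.5, and every pair that starts back to back was among them. The Spearman correlation was 0.68 for Col4a1 with Col4a2, whose promoter windows overlap as printed above, 0.56 for Col4a4 with Col4a3, whose starts lie 72 bases apart on chromosome 1, and 0.68 for Col4a6 with Col4a5, 1309 bases apart on chromosome X. Among the highest pairs that do not start back to back, Col4a2 stood at 0.69 with Col16a1 and Col4a5 at 0.70 with Col5a1. Col7a1 was closest to Col16a1 (0.70) and Col11a2 (0.57), all rich in GC. Col25a1, the most abundant, was only loosely tied to any other: its highest values were 0.48 with Col4a2 and 0.45 with Col23a1, and it stood at -0.15 with the meningeal fibroblast markers.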

How the data were processed

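Raw counts per gene were deposited by the authors in 10 tables, 1 for each line and feeding state. Per the submitters' processing notes HISAT2, Bowtie2, edgeR and mm10 were used, with no version, and the counting program and strand setting are not given in the sources used here. The authors' deposited edgeR tables, with log2 fold changes and p-values, served for symbols and for 1 stated comparison. The 58 per-library columns in them were not used. Library totals ran from 14931889 to 19816134 counts for E1, from 23322124 to 39999368 for E2, from 14911351 to 23619033 for E3, from 5517552 to 33981500 for E4 and from 18614527 to 30330400 for E5. The E1 and E3 tables list 21749 genes and the others more, so CPM across tables have different denominators.

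Tests were edgeR 4.0.16 quasi-likelihood fits in R 4.3.3 on counts, with TMM scaling, filterByExpr (minimum count 10, minimum total 15) and Benjamini-Hochberg adjustment over all tested genes. Genotype was fitted within line and feeding state, fasting over E1 and E3 with line as covariate, and interactions within a line. The fits were tested on simulated data. Alternatives were RLE scaling, no filter, DESeq2 1.42.0, a GC trend (natural spline, 5 degrees of freedom), single lines, a replicate block and leaving out libraries.

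Members and lists were chosen with earlier results of these data known. Members called in a fasting comparison or an interaction, the 2 of smallest p per genotype comparison (mean log2 CPM at least 1) and the leader of each class were named, with up to 3 genes per list and direction. The 5 members of the difference between lines were named after their values were seen, as were those given in E2 fed knockout replicate 3 and in the correlations.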

Additional observations from a re-analysis of the deposited data

Results flagged for a closer look

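Within groups of 4, a library was singled out where its gap to the nearest other library, over the group's whole range, passed Dixon's 95% critical value. The 12 groups of 4 were examined for each of 18 of the 43 collagens. These were the ones the naming rule picked and the leading member of each class over all libraries. They were picked from these same values, and some vary together. The rate of about 1 group in 20 that chance gives is therefore no fair reference. A library was singled out 27 times. Of these, 18 fell elsewhere and 9 were fed E2 knockout replicate 3, the library rich in fat markers, with Col3a1 at 1810 CPM, Col1a1 at 542, Col1a2 at 457, Col4a2 at 316, Col6a1 at 253, Col15a1 at 209, Col5a3 at 159, Col6a6 at 34.9 and Col28a1 at 5.32. Fed E2 wild type replicate 2 was high for Col1a1 (11.9 CPM).

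In E1, fed knockout replicate 3 was high for Col16a1 (47.9 CPM), and the low ones were fed knockout replicate 2 for Col6a6 (2.81), fed wild type replicate 2 for Col28a1 (1.64) and fasted knockout replicate 4 for Col1a2 (15.2). In E4, fasted wild type replicate 2 was low for Col23a1 (27.3 CPM) and Col5a3 (8.16). The high fed E4 libraries were knockout replicate 3 for Col25a1 (268 CPM), knockout replicate 4 for Col1a2 (31.2) and wild type replicate 4 for Col26a1 (26.4). In E5, fasted knockout replicate 3, which held pituitary RNA, was high for Col27a1 (19.0 CPM), Col13a1 (4.0) and Col28a1 (2.31). Fed wild type replicate 3 was high for Col4a4 (7.90 CPM) and Col13a1 (3.68). Fasted wild type replicate 1, which held choroid plexus RNA, was high for Col8a1 (22.5 CPM), fasted knockout replicate 4 for Col16a1 (34.3) and fasted knockout replicate 1 for Col6a6 (1.61).

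Differences of an effect between groups passed the edgeR quasi-likelihood test with Benjamini-Hochberg adjustment. The log2 fasting change in E3 minus that in E1 wild types was -2.09 for Col7a1, -0.98 for Col16a1, 2.91 for Col3a1, 2.05 for Col1a1 and -1.13 for Col28a1. Line, batch and sex cannot be told apart in this difference. The E3 interaction of genotype and feeding was 1.18 for Col26a1.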

How the results depend on the processing

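The number of collagens called at an adjusted p under 0.05 depended on the processing where it was above 0. Fasting in wild types called 4, and 7 in E3 alone or 1 without the 2 libraries of other tissue, with 1 to 6 when single libraries were left out. Fasting in knockouts called 3, and 5 with the GC trend taken out, 6 in E1 alone, 0 in E3 alone, 0 in E3 alone with a replicate block, and 1 to 6 with single libraries left out. The difference between lines called 5, and 2 to 6 with single libraries left out. The cause was not tested. Genotype called 0 throughout, except 1 in fasted E2 by DESeq2 and 0 to 1 with single libraries left out, 1 in fed E3 by DESeq2, 1 in fasted E3 with both feeding states in one model (Col26a1, edgeR adjusted p = 0.036), and 3 in fasted E4 with no filter on low counts. The E3 interaction called 1, and 3 by DESeq2, 0 with the GC trend taken out, 0 with the replicate block, 0 without 3 libraries of other tissue and 0 to 1 with single libraries left out. Col3a1 in fed E2 read 6.44, and -0.49 to 7.09 with single libraries left out, the lowest without knockout replicate 3.

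In no table did every same-numbered pair pass the correlation of 0.1 set for pairing by replicate number. In fed E3 the correlations of deviations were -0.047, 0.06 and -0.106, in fasted E3 0.117, 0.079 and 0.25, in fed E4 0.26, 0.051, -0.185 and 0.27, and in fed E5 0.096, -0.206, 0.598 and -0.385. Libraries that correlated best with their own number were 1 of 6, 5 of 6, 3 of 8 and 2 of 8, a hint of pairing in fasted E3 from the data alone. Of the values of single collagens, 420 kept direction and side of the threshold, 89 lost the threshold, 6 passed it and 1 reversed. The 89 all came from members called as reported, since an uncalled member cannot lose the threshold. Most of the 33 values varied in this way were genotype estimates not called as reported. The 420 therefore say little about how steady the calls were. Levels under TMM scaling moved by less than the mean SD of libraries within groups. The fits without libraries of other tissue were chosen after seeing the data. Groups hold 3 or 4 libraries, and E4 fasted knockout replicate 1 has the least depth.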
